A study of Mus musculus with 3 samples.

Results

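The H/ACA small nucleolar RNAs (snoRNAs) and the small Cajal body RNAs (scaRNAs) were taken as all genes whose symbol starts with Snora or Scarna in the GENCODE M21 annotation used for the deposited tables. The rule found 51 entries of 55536 annotated genes. Of these, 42 entries with 40 distinct symbols were Snora genes and 9 were Scarna genes, and Snora16a and Snora43 each had 2 overlapping entries. The entries were 70 to 414 bases long with a median of 133.

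RNA was sequenced after removal of ribosomal RNA from the chromatin fraction of bone marrow-derived macrophages, which are macrophages grown from marrow precursors of C57BL/6J mice. All cells had been exposed to 100 ng/ml lipid A, the TLR4-activating part of lipopolysaccharide, for 12 h, had been washed and left for 12 h, and had then received 100 ng/ml lipid A for 30 min. They form 1 group of 3 biological replicates with a shared donor identifier, so that no untreated cells and no other cell fraction enter any comparison here. The p-values given cover only how much these 3 samples vary. Replicates 1, 2 and 3 were made from 1 µg, 250 ng and 500 ng of RNA, so the amount of RNA cannot be told apart from the replicate, and the labels give a size range of 250 to 400 for the libraries. Total expected counts in genes were 12401783, 18317179 and 18164629. The 5 macrophage markers examined (Adgre1, Csf1r, Lyz2, Spi1, Cd68) had mean levels of 47.2 to 345 TPM (transcript abundance per effective base, summing to the same total in each library), against 0 to 0.0700 TPM for the 3 lymphoid markers, 0 TPM for the 3 granulocyte markers and 0.357 to 0.450 TPM for the 2 stromal markers in the gene tables.

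H/ACA RNAs fold into hairpins separated by a hinge with the H box and end in a tail with the ACA box, and they guide the dyskerin complex to the uridines that it turns into pseudouridine. Those called snoRNAs act mainly on ribosomal RNA in the nucleolus, and scaRNAs act on spliceosomal RNAs in Cajal bodies. The other snoRNA class, the C/D box RNAs, guides ribose methylation by fibrillarin, and some scaRNAs belong to that class or join both kinds of domain in 1 molecule. Most of these RNAs are cut out of introns of host genes after splicing, while the host transcript is still being made or soon after.

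The sequences show which of the genes carry the boxes of their class. Sequences are given 5′ to 3′ as DNA from the GENCODE M21 transcripts (mm10). The first set holds Snora73a and Snora73b, the best counted Snora genes, with an H box found in the folded hinge and the final ACA in capitals. The set goes on with the ACA of Snora31 and with the H box letters and ACA of Snora30, Snora7a and Snora35, which stand for short members whose reads depend on the table (Snora31, Snora30), that have reads in both tables (Snora7a) or in neither (Snora35).
Snora73a: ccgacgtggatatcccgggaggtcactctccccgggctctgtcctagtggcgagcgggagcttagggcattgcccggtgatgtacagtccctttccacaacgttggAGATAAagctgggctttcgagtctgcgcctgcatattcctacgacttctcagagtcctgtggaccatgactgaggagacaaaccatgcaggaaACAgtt
Snora73b: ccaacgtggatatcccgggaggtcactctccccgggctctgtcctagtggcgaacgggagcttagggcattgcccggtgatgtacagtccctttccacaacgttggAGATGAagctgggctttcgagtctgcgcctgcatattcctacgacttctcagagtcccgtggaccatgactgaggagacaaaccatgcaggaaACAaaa
Snora31: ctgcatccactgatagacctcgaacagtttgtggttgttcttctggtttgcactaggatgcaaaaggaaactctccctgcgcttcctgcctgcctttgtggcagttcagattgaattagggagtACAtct
Snora30: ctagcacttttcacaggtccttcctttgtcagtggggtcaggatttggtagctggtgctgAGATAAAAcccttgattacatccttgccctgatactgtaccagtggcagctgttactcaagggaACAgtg
Snora7a: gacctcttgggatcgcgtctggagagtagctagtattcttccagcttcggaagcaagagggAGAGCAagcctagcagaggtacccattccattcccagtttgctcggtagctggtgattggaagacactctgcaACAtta
Snora35: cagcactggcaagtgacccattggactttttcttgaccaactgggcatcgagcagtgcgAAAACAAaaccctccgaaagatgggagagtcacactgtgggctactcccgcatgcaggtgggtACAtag

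The positions in mm10 are chr14:75847905-75848034 for Snora31, chr7:127527874-127528003 for Snora30 and chrX:146994381-146994508 for Snora35, all on the plus strand, and chr6:115807975-115808114 on the minus strand for Snora7a. Snora73a and Snora73b are the 2 copies of a snoRNA known for its role in processing of the ribosomal RNA precursor, and they lie in the same 2 annotated hosts, Snhg3 and Rcc1, at chr4:132352775-132352979 and chr4:132352322-132352526, both on the minus strand. They were identical at 198 of 205 aligned bases (96.6%). Counted from the 5′ end of Snora73a, the differences were G3A, G54A, A111G, T164C, G203A, T204A and T205A. The other close pairs were Scarna3a and Scarna3b at 85.7% identity, the overlapping Snora16a entries at 99.3% and the overlapping Snora43 entries at 91.4%. Reads from such copies can be shared between them, so their separate values are uncertain.

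The second set holds 4 Scarna genes that carry many reads or show the mixed ends of this group. Capitals mark the letters TGATGA near the start and CTGA near the end in Scarna10, Scarna6 and Scarna9, and the final ACA in Scarna13.
Scarna10, bases 1 to 70: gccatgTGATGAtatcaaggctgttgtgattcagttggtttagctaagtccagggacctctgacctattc
Scarna10, bases 256 to 325: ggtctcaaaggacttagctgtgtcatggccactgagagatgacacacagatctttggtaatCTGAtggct
Scarna6: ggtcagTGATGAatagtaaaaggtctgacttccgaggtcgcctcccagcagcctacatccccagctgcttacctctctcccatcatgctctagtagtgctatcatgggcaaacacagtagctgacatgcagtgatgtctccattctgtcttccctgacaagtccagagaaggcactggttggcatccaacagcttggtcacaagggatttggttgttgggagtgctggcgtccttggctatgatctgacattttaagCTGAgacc
Scarna9: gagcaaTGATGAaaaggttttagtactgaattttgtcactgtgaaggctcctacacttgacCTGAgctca
Scarna13: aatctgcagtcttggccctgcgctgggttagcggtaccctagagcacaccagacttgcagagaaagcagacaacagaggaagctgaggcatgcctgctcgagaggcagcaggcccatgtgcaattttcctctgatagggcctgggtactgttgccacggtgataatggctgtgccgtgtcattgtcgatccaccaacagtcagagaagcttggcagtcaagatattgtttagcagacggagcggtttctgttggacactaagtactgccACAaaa

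Scarna10 lies at chr6:125186359-125186683, Scarna9 at chr9:15326264-15326333 and Scarna13 at chr12:105031075-105031349, all on the minus strand, and Scarna6 lies at chr1:87784556-87784820 on the plus strand. The boxes that the label H/ACA implies were found in most Snora entries and in few Scarna genes. Both the H box letters and ACA at its exact place were present in 33 of 42 Snora entries and in 1 of 9 Scarna genes. The letters ACA stood exactly 3 bases from the 3′ end in 35 of 42 Snora entries (83.3%) and in 2 of 9 Scarna genes, Scarna8 and Scarna13. The same letters at that place were found in 0 of 98 Snord genes (C/D snoRNAs) with a sequence and in 1.18% of 1949 snRNA and misc_RNA genes, and in 18.7% of the 1409 other genes typed snoRNA or scaRNA. Within the last 10 bases, ACA was present in 44 of all 51 entries, against 8.16% of the Snord genes and 49.5% of the other genes typed snoRNA or scaRNA. Snora44 and Snora81 were the Snora entries without it, and Snora17 and both Snora43 entries carried CTGA within the last 12 bases. The letters ANANNA of the H box stood in the middle of 39 of 42 Snora entries, but these loose letters were also there in 75.1% of the snRNA and misc_RNA genes. In minimum free energy folds at least 2 outer stems were present in 41 of 42 Snora entries, and an H box match lay unpaired between stems in 22 of them.

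The Scarna genes divided by their ends. TGATGA within the first 25 bases together with CTGA within the last 12 bases was found in Scarna6, Scarna9, Scarna10 and Scarna17, in 0 Snora entries and in 65 of 98 Snord genes. Scarna2 had only the CTGA near its end. Scarna3a and Scarna3b had ACA within the last 10 bases but not at the exact place, and Scarna8 and Scarna13 had it at the exact place. Scarna10 and Scarna6, known as composite RNAs with both kinds of domain, thus carried C/D letters at their ends. In all, 4 of the 51 entries had these letters at both ends, which does not by itself assign their class. The search used the strand of each transcript, and a match or its absence is a description of these letters only.

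Of the 51 entries, 45 lay within a host gene on the same strand. For 21 entries the whole gene lay in introns of every host transcript, 19 were covered by an exon of at least 1 host transcript, 5 overlapped an exon in part and 6 had no annotated host. Hosts were protein-coding for 32 entries, including 11 entries in ribosomal protein genes (names starting with Rpl or Rps), and 10 entries lay in Snhg genes, the noncoding snoRNA host genes. Snhg12 alone held Snora44, Snora61 and both Snora16a entries, and Kansl2 held Snora2b and Snora34.

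The members took a small share of the reads in each library. Their expected counts were 0.153% of all counts in replicate 1 (95% Wilson interval 0.151 to 0.155%), 0.128% in replicate 2 (0.127 to 0.130%) and 0.119% in replicate 3 (0.118 to 0.121%), a mean of 0.134% ± 0.0173 (SD, n = 3). The share was highest in replicate 1, which had the most RNA put in and the fewest reads, and the part of these in it was not tested. The intervals cover counting error only, as no molecular identifiers are described. A share also depends on the counts of all other genes. A lower share could mean, among other things, fewer cells with these RNAs or less RNA in each cell, and in bulk samples the alternatives cannot be told apart.

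Nearly all of these counts fell on the 7 longest members, each 196 to 414 bases long. They held 99.5%, 99.5% and 99.6% of the members' expected counts in replicates 1, 2 and 3. Of the members' estimated counts in the second transcript tables, which have the column layout of kallisto, they held 97.1%, 96.5% and 96.1%. The other 44 entries, none over 184 bases, shared 101, 122 and 97.4 expected counts, and 596, 967 and 975 estimated counts.

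**Figure D1:**
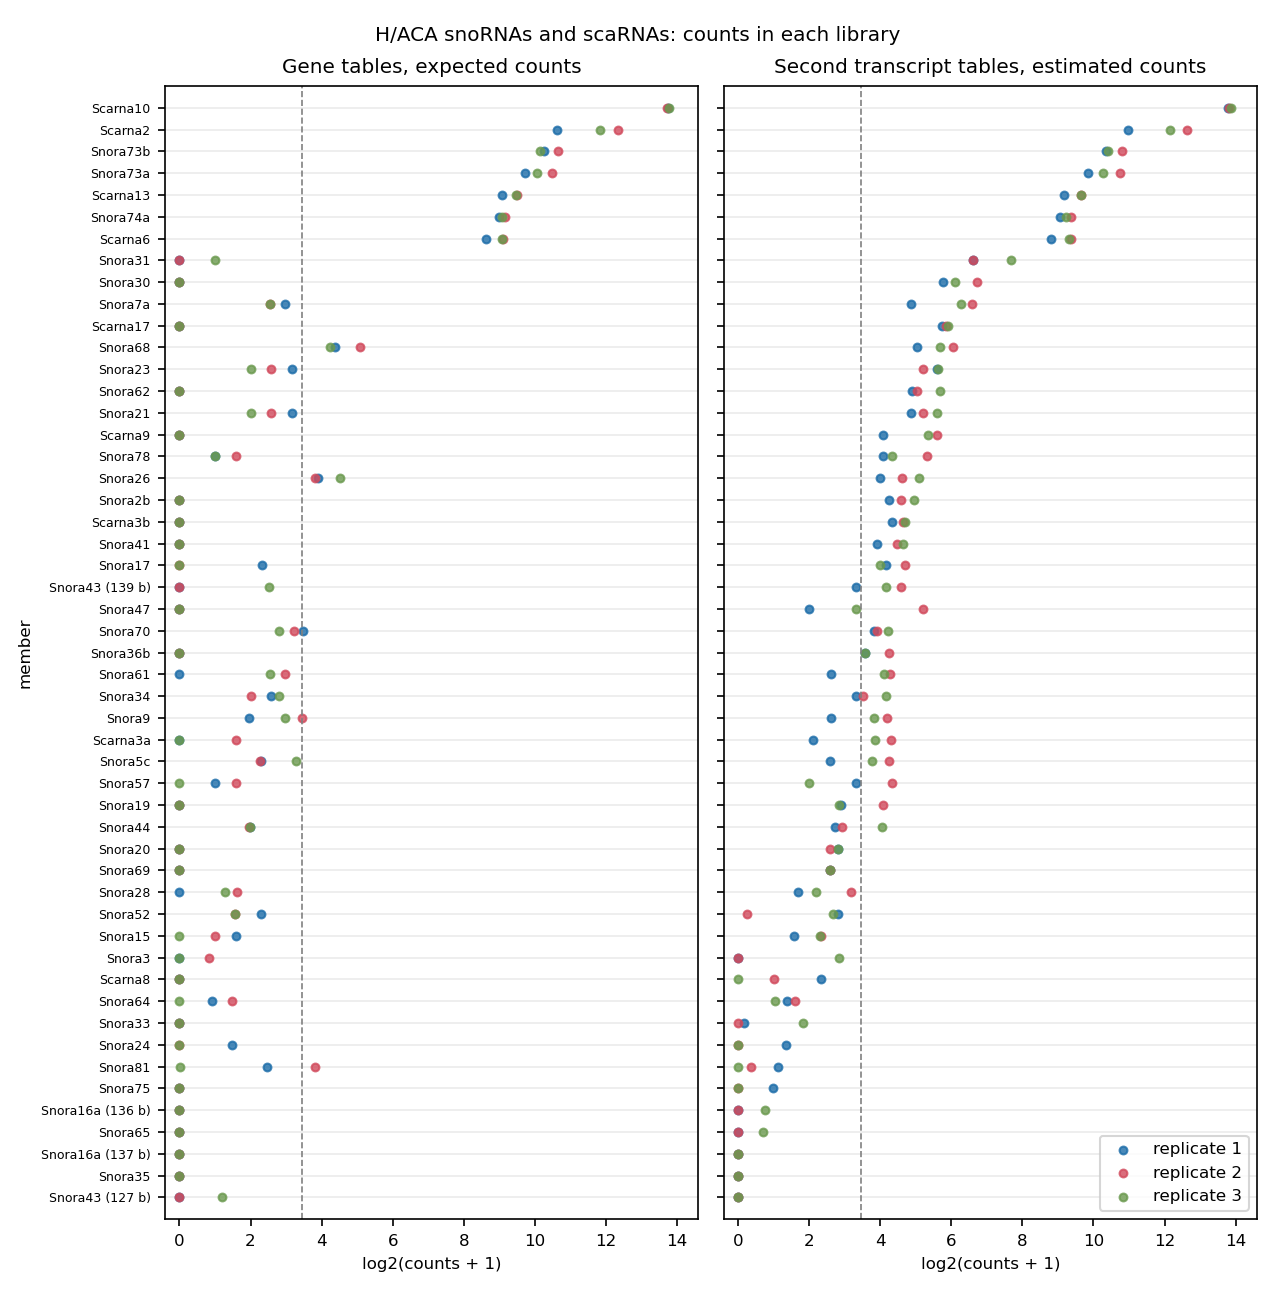
Counts of each of the 51 entries in each library as log2(counts + 1), in the gene tables on the left and in the second transcript tables on the right, with members sorted by mean estimated count and the dashed line at 10 counts. The 7 uppermost members sit near the same place in both panels, while most members below them lie further right in the right panel, with Snora30, Scarna17 and Snora62 at 0 on the left in every library.

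Scarna10, which is known to guide modification of the U5 spliceosomal RNA, had the most reads of all members. It lies within Ncapd2, a gene for a condensin subunit. Scarna10 had 13778, 13338 and 13986 expected counts in replicates 1, 2 and 3, which was 72.7%, 56.7% and 64.5% of all members' counts. As CPM (counts scaled to the library total, with no length correction) this was 1111, 728 and 770, with replicate 1 above the other two by up to 1.53 times. In TPM the level of Scarna10 was 10709, 9849 and 9584, so that the libraries differed less on this scale. The effective length that divides the counts was 119, 84.8 and 98.0 bases in the 3 libraries and moved in the same order as the CPM. From the second tables, Scarna10 had a level of 6284, 3823 and 4266 TPM with nearly constant effective lengths of 141 to 143 bases. Its host Ncapd2 had 4.46, 7.14 and 9.23 TPM, lowest in the library where Scarna10 was highest.

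Scarna2 was second in counts and the most variable of the long members. This RNA of 414 bases at chr3:108554338-108554751 on the minus strand has no annotated host. Scarna2 had 1583, 5206 and 3644 expected counts, or 128, 284 and 201 CPM, so that replicate 2 was 2.23 times replicate 1. The CPM of Scarna2 in the second tables was 102, 194 and 147, a 1.89-fold range in the same order. Within 1 library, the counts of Scarna10 were 8.70, 2.56 and 3.84 times those of Scarna2 in replicates 1, 2 and 3, and 7.03, 2.29 and 3.31 times in the second tables. The order of the 2 genes was the same in every library, and the replicate with the highest Scarna10 CPM had the lowest Scarna2 CPM. RNA input and total counts also differ between these replicates, and their part in this was not tested.

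Snora73b and Snora73a followed. Snora73b had 1221, 1591 and 1132 expected counts and Snora73a had 836, 1431 and 1063. Snora73b exceeded Snora73a in each library, by 1.46, 1.11 and 1.07 times, and by 1.42, 1.06 and 1.09 times in the second tables. The spread of the read assignment that the gene tables give was only 1.22 to 1.43 counts for this pair. On the TPM scale of the gene tables Snora73b had 3953, 5597 and 3510 and Snora73a had 2706, 5034 and 3296, both highest in replicate 2, whereas the second tables put Snora73b at 1508, 1184 and 943 TPM, highest in replicate 1, and Snora73a at 1063, 1120 and 862 TPM, highest in replicate 2. The annotated gene Gm17300 overlaps both on the opposite strand, and reads of opposite strands may be shared. The host Snhg3 had 5.0, 3.64 and 3.54 TPM, far below the TPM of either RNA.

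The remaining long members differed between libraries by at most 1.39 times in CPM. Scarna13, a scaRNA in an intron of Snhg10, had 541, 715 and 702 expected counts, or 43.6, 39.0 and 38.6 CPM, a range of 1.13 times. Its host Snhg10 had only 0.590, 0 and 0.460 TPM. Scarna6, in an intron of the autophagy gene Atg16l1, had 395, 551 and 542 expected counts, or 31.9, 30.1 and 29.8 CPM, a range of 1.07 times. Atg16l1 had 68.1 ± 5.33 TPM (SD, n = 3). Snora74a, a snoRNA of 196 bases, had 505, 567 and 533 expected counts, or 40.7, 30.9 and 29.3 CPM, a range of 1.39 times with replicate 1 above the others. It is covered by an exon of AC121821.1, 1 of its 2 annotated hosts, whose level was 13.0 ± 1.55 TPM (SD, n = 3).

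**Figure D2:**
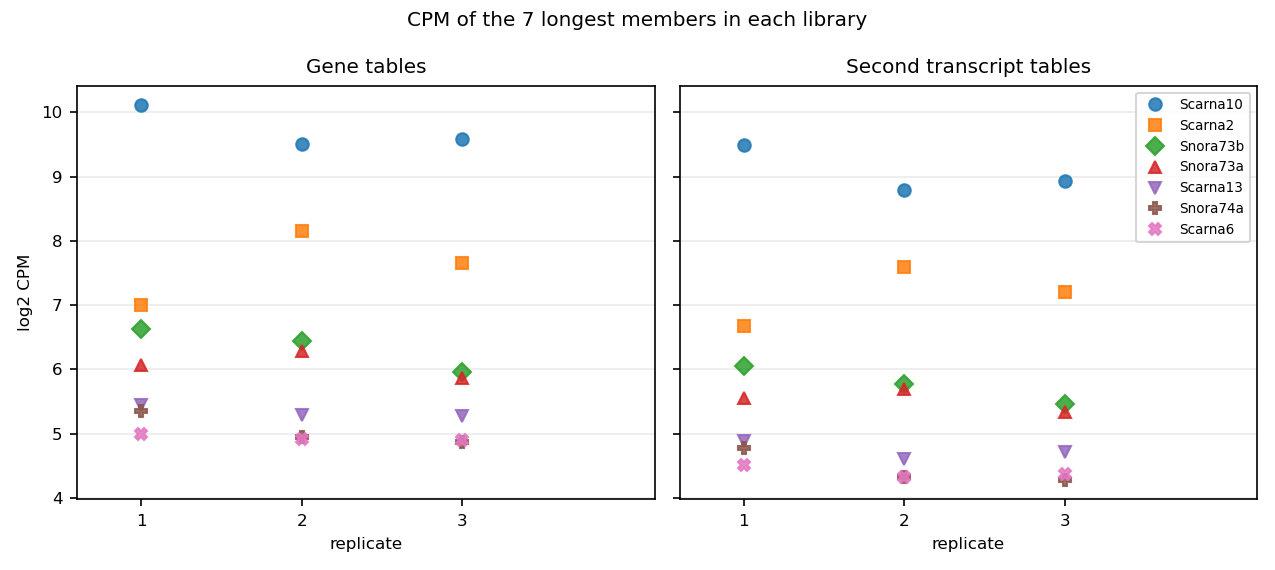
Level of the 7 longest members in each library as log2 CPM, in the gene tables on the left and in the second transcript tables on the right, 1 symbol per gene. Scarna2 is lowest and Scarna10 highest in replicate 1 in both panels, while Scarna6 and Scarna13 stay nearly level.

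The spread between libraries could be estimated for few members. Of 51 entries, 9 passed the low-count filter: the 7 long ones, Snora26 and Snora68. Their biological coefficients of variation, the spread between libraries beyond counting error as edgeR estimates it, ranged from 0.161 for Scarna6 to 0.267 for Scarna2. The median was 0.195, against 0.210 over the 14140 genes kept. These 9 had a median log2 difference in replicate 1 of 0.23 from the mean of the other libraries after TMM scaling, with 7 of 9 above 0, and medians of -0.11 in replicate 2 and -0.13 in replicate 3. Scarna2 went the other way, at -0.92, 0.76 and 0.16, beside 0.55, -0.42 and -0.13 for Scarna10. In the second tables, where 25 entries passed the filter, the medians were 0.11, -0.24 and 0.05. The sign for replicate 3 thus differed, but these medians cover a larger set of entries. Of the 9 entries above, only Scarna13 changed sign in replicate 3, from -0.005 to 0.065. In replicate 1, Snora26 went from 0.23 to -0.24 and Snora68 from 0.23 to -0.19. In replicate 2, Snora73b went from 0.08 to -0.04. No test was made of these shifts, since each replicate is a single library.

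The shorter members depended on which table was read. From the gene tables, 9 of 51 entries had a mean of at least 10 expected counts (17.6%, against 27.0% of all 55536 genes). In all 3 libraries 19 of the 51 had 0, as did 31319 of the 55536 genes. From the second tables, 32 of 51 had a mean of at least 10 estimated counts (62.7%, against 43.9% of all genes). There 2 of the 51 had 0 in all 3 libraries, as did 21074 of the 55536 genes. The 2 were Snora35 and the shorter Snora43 entry, while the 137-base Snora16a entry had far less than 1 count. Summed over all genes, the second tables hold 1.58, 1.79 and 1.70 times as many counts in replicates 1, 2 and 3. The mean counts of the 7 long members were 1.06 to 1.23 times as high in the second tables. Among the 99 Snord genes, with a median length of 84 bases, 4 reached 10 in the gene tables and 36 in the second tables. The mean effective length in the gene tables was at most 4.2 bases for each of the 42 entries of up to 150 bases, while the second tables give effective lengths of at least 15.4 bases.

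For 12 entries the gene tables had 0 expected counts in all 3 libraries while the second tables had at least 3 estimated counts in each library. These were Scarna3b, Scarna9, Scarna17, Snora2b, Snora19, Snora20, Snora30, Snora36b, Snora41, Snora47, Snora62 and Snora69. Of these, 10 lay in introns only, 1 overlapped an exon in part and 1 had no host. Snora30, in introns of Gm42715 and Srcap, had 53, 105 and 68 estimated counts. Scarna17, a C/D scaRNA with no annotated host, had 52, 57 and 59, and Scarna9, in an intron of the centrosome gene Cep295, had 16, 47 and 40. Snora62, in an intron of the ribosomal protein gene Rpsa, had 29, 32 and 50. By counting error alone, a count of 0 allows up to 3 counts, which is 0.242, 0.164 and 0.165 CPM in the gene tables of replicates 1, 2 and 3. This is no upper limit on the level of these 12 entries, since the second tables assign them reads from the same libraries.

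Snora31 showed the same gap. This snoRNA in an intron of Tpt1 had 0, 0 and 1 expected counts but 97, 97 and 203 estimated counts, the highest count of any member of up to 150 bases. Its host Tpt1 had 64.8, 40.5 and 78.6 TPM. Snora7a, in the ribosomal protein gene Rpl32, had 6.89, 4.88 and 4.86 expected counts and 28.0, 94.7 and 76.7 estimated counts, with replicate 1 lowest in the second tables and highest in the gene tables. Snora21 and Snora23, in introns of Rpl23 and of the importin gene Ipo7, both had 8, 5 and 3 expected counts, and had 28, 36 and 47 and 47, 36 and 48 estimated counts. Snora78, in the noncoding host Snhg9 and opposite to Rps2, had 1, 2 and 1 expected counts and 16, 39 and 19 estimated counts.

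Snora68 and Snora26, the only shorter members with a mean of at least 10 expected counts, were counted in both tables. Snora68 had 19.9, 32.8 and 17.8 expected counts and 31.8, 65.7 and 50.03 estimated counts. Snora26, in the noncoding host Dancr, had 14, 13.0 and 22 expected counts and 14.9, 23.6 and 33.4 estimated counts. Its TPM in the gene tables was nevertheless 0 in every library because its effective length there was 0, so this level is no measure of absence. Snora81, in Eif4a2, had fewer counts in the second tables, with 4.46, 13.1 and 0.0100 expected counts but 1.18, 0.296 and 0 estimated counts. Its replicate 3 stood apart in the gene tables. Snora70 in Rpl10, Snora9 in Snhg15 and Snora5c in Tbrg4 had reads in every library of both tables, with 10.04, 8.26 and 5.94, then 2.90, 9.90 and 6.77, then 3.87, 3.83 and 8.74 expected counts, and with 13.3, 14.1 and 17.7, then 5.17, 17.3 and 13.3, then 5.0, 18.1 and 12.5 estimated counts.

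The small families were unequal within themselves. Scarna3b, in an intron of Dcaf5, had 19, 24 and 25 estimated counts, and Scarna3a, in an intron of Cop1, had 3.32, 18.8 and 13.6, below Scarna3b in each library although Cop1 stood at 102 ± 13.1 TPM and Dcaf5 at 11.1 ± 1.01 TPM (SD, n = 3). The longer Snora43 entry had 9, 23 and 17 estimated counts, and the shorter entry inside it had 0. The Snora16a entry of 136 bases had 0, 0 and 0.687, and that of 137 bases had far less than 1 count in every library. Scarna8, an H/ACA scaRNA in an intron of the augmin gene Haus6, had 4, 1 and 0 estimated counts and 0 expected counts.

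**Figure D3:**
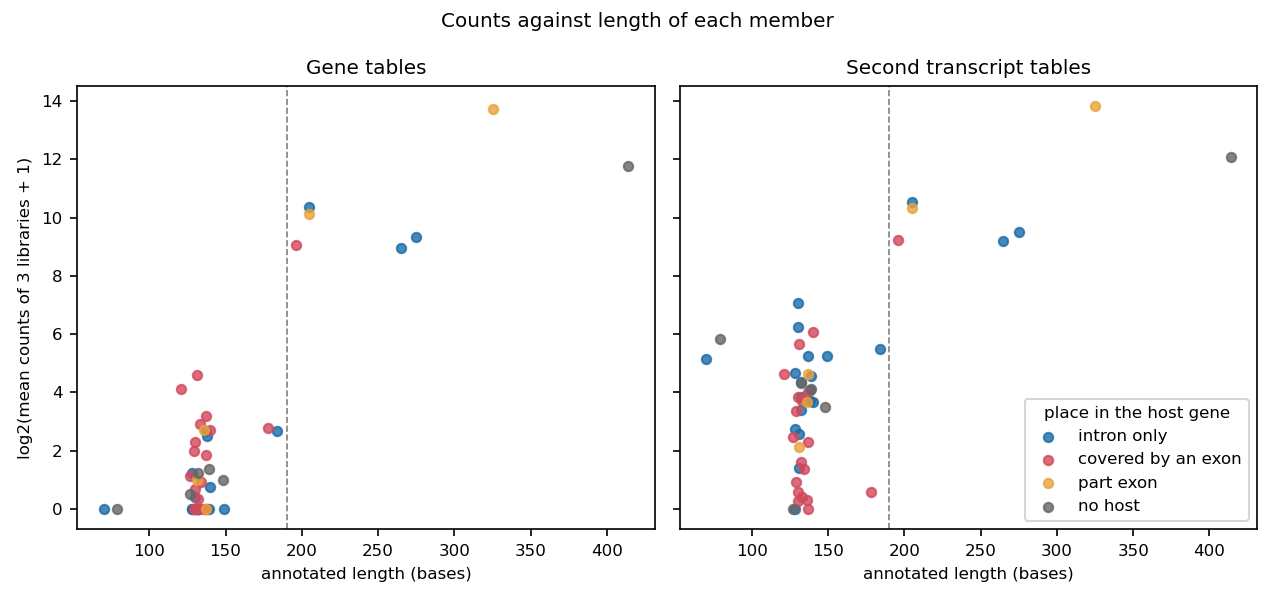
Annotated length of each member in bases against log2(mean counts of 3 libraries + 1), in the gene tables on the left and in the second transcript tables on the right, coloured by the place of the member in its host gene, with a dashed line at 190 bases. The 7 members to the right of the line lie above all others in both panels, and the members covered by an exon make up most of the lowest points on the right.

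The low members in the second tables were mostly those covered by a host exon. Estimated counts were under 3 in all 3 libraries for 8 of 19 covered entries and for 1 of 21 entries in introns only, and the median of the mean estimated counts was 3.88 and 22.7. In the gene tables the medians were 2.62 for the covered entries and 0 for those in introns only. The 8 covered entries were both Snora16a entries, Snora24, Snora33, Snora64, Snora65, Snora75 and Snora81. The host transcripts that cover them had many more reads, for example 158, 354 and 254 estimated counts for the transcript over Snora33 and 619, 1125 and 772 for the one over Snora81. Reads inside such an entry fit the host transcript as well as the snoRNA, so its count depends on how the tables share them. This comparison of places was noticed in these data and was not tested.

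The intron-only entry without reads was Snora35. It lies in Htr2c, a serotonin receptor gene known from the brain. Snora35 had 0 counts in both tables in all 3 libraries, and Htr2c had 0 TPM in all 3 libraries, also in the second tables. The other 20 intron-only entries had at least 1 estimated count in some library. Snhg9, the host of Snora78, was also listed at 0 TPM in the gene tables but stood at 2.65 TPM on average in the second tables, and Snora78 had reads in both.

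Levels of members and hosts were set side by side, with 1 host taken for each of the 4 entries (Snora30, Snora73a, Snora73b and Snora74a) that have 2. Across the 45 entries with a host, which share 40 hosts, Spearman's rho between the mean TPM of member and host was -0.12 in the gene tables and -0.17 in the second tables. Within single libraries it was -0.19, -0.13 and -0.15, and -0.09, -0.23 and -0.18 in the second tables. The points share the libraries, and several share a host, and the TPM of a short member depends strongly on its effective length, so this is a description only. Single genes show the range in the gene tables. Snora73b with 4353 ± 1100 TPM lay in a host with 4.06 ± 0.816 TPM (SD, n = 3). The intron of Tpt1, with 61.3 ± 19.3 TPM, holds Snora31 with 0, 0 and 49.2 TPM. The low level of Snora31 was not seen in the second tables, where it stood 7.97 log2 units above 1 TPM.

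In all, 11 mature microRNAs of RefSeq (GRCm38.p6) lie inside 6 of the members: Scarna3a, Scarna3b, Scarna13, Snora19, Snora34 and Snora36b. The annotation has a microRNA-type gene over Snora74a (Gm49347) and over Snora81 (Gm49346) as well. MicroRNAs are short RNAs that pair with messenger RNA through bases 2 to 8, the seed, shown here in capitals for the 2 closely related Scarna3 copies and for Scarna13.
mmu-miR-1843b-5p: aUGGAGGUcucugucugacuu
mmu-miR-1843a-5p: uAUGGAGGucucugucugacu
mmu-miR-1843b-3p: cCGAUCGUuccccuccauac
mmu-miR-1843a-3p: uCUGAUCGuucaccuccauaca
mmu-miR-3069-5p: uUGGCAGUcaagauauuguuuagc
mmu-miR-3069-3p: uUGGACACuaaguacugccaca

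The seeds show how close the copies are. The 5p seeds of the Scarna3 pair hold nearly the same letters displaced by 1 base, because the annotated starts differ. The annotated hairpin genes had few reads of their own in the second tables. The hairpin in Scarna3a had 4.68, 3.23 and 6.44 estimated counts, and those in Scarna3b and Scarna13 had 0. The hairpin in Snora34 had 1.0, 9.55 and 7.0, and that in Snora36b had 1.0, 0 and 0. No count was available for the hairpin in Snora19. These libraries do not select short RNAs, so these counts do not measure mature microRNAs.

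As a common yardstick, each level was tested against 1 TPM. The test was one-sided limma on log2(TPM + 0.1), adjusted over all genes, and 51.1% of the 24180 genes with a value above 0 passed. Of 51 members, 31 could be tested, and 17 of them passed. These were the 7 long members and Snora5c, Snora7a, Snora9, Snora21, Snora23, Snora34, Snora44, Snora52, Snora68 and Snora70. Scarna10 stood 13.16 ± 0.14 (SE) log2 units above the floor and Scarna2 10.19 ± 0.34, with limma adjusted p of 3.9e-05 and 4.3e-05. With so small an effective length, 1 read in a short member already gives a high TPM, as 1 count of Snora31 gave 49.2 TPM. By CPM, with a floor of 1 CPM, only the 7 long members passed (51.5% of all genes did). Among genes with a mean of at least 10 expected counts, 8 of 8 tested members passed the floor of 1 TPM, as did 82.5% of all such genes. The second tables had 39 of 49 tested members above the floor of 1 TPM (57.5% of all genes), and 13 of 49 above 1 CPM (55.0%), and 16 of the 17 genes passed in both tables, the exception being Snora52. The same test called 3 of 5 Snord genes in the gene tables and 52 of 66 in the second tables.

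The chromatin RNA of genes that act with these RNAs was examined from a list of 25, which also holds the 4 C/D core genes and the RNA gene Terc. Of the 25, 22 passed the floor of 1 TPM in the gene tables (51.1% of all genes) and 23 in the second tables (57.5%). Among the 4 core proteins, Dkc1, the dyskerin pseudouridine synthase, had 12.8, 8.74 and 7.86 TPM, highest in replicate 1. Gar1 had 5.29 ± 0.423 TPM and Nhp2 4.04 ± 0.827 TPM (SD, n = 3). In the gene tables both were also highest in replicate 1, at 5.74 and 4.72 TPM, whereas the 4 C/D core genes were lowest in that replicate. Nop10, the smallest core protein, had 1.14, 1.19 and 0.860 TPM and did not pass. In the second tables Dkc1 had 28.0, 18.6 and 16.9 TPM, again with replicate 1 highest, and Nop10 had 0.838, 0.918 and 1.00.

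Of the 7 assembly factors, all but Naf1 passed in the gene tables, and all 7 in the second tables. Naf1, which holds the place of Gar1 on immature particles, had 1.08 ± 0.324 TPM (SD, n = 3), and Shq1, the chaperone of dyskerin, had 2.35 ± 0.935 TPM. Pih1d1, a part of the R2TP chaperone complex, was the highest of the assembly factors at 5.67 ± 1.41 TPM. The R2TP helicases Ruvbl1 and Ruvbl2 had 2.75 ± 0.304 and 1.61 ± 0.293 TPM. Nufip1 and Rpap3 had 2.63 ± 0.346 and 2.45 ± 0.970 TPM. Shq1 and Ruvbl2 no longer passed without replicate 2 or without replicate 3, and Rpap3 did not pass without replicate 1.

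All 4 Cajal body genes and all 4 genes of 3′ end trimming passed in both tables. Coil, the coilin of the Cajal body, had 2.76 ± 0.280 TPM, and Wrap53, which carries scaRNAs and telomerase RNA there, had 2.28 ± 0.535 TPM (SD, n = 3). Smn1 had 9.55 ± 2.10 TPM and Nolc1 3.64 ± 0.946 TPM. Of the trimming enzymes, the nuclear exosome nuclease Exosc10 had 19.8 ± 1.97 TPM, the polymerase Tent4b that adds short tails had 11.8 ± 2.10 TPM, and the deadenylases Parn and Toe1 had 7.91 ± 1.18 and 5.49 ± 1.34 TPM.

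Telomerase RNA, Terc, also ends in an H/ACA domain but carries another name and is no member. Terc had 1.77, 3.79 and 2.57 TPM from only 4, 10 and 7 expected counts, and passed the floor of 1 TPM in both tables, but it lay at -1.11 log2 units from 1 CPM and did not pass there. The reverse transcriptase Tert, with 0.05, 0.17 and 0.05 TPM, did not pass. The C/D core genes Fbl, Nop56, Nop58 and Snu13 all passed, from 3.48 ± 0.833 TPM for Snu13 to 37.6 ± 4.77 TPM for Nop56 (SD, n = 3), with a median of 12.8 TPM against 4.67 TPM for the 4 H/ACA core genes.

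**Figure D4:**
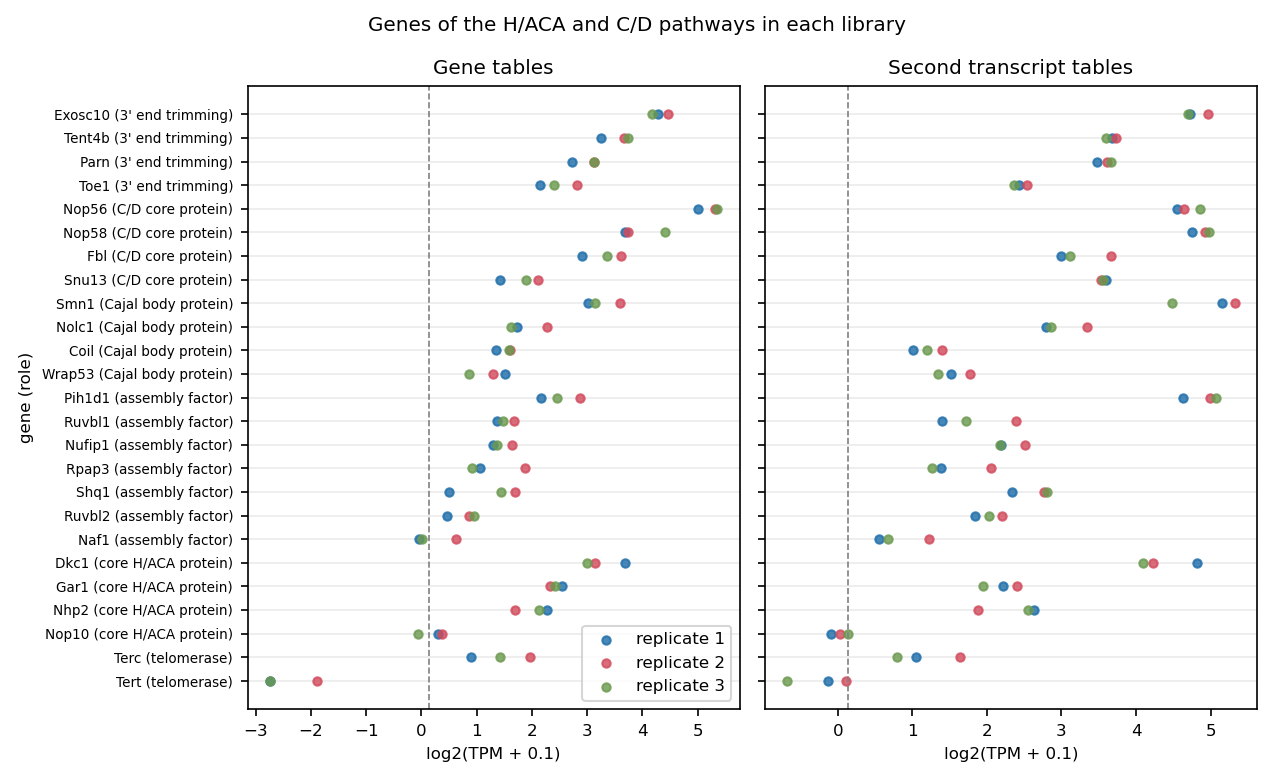
Level of 25 genes of the pathway in each library as log2(TPM + 0.1), in the gene tables on the left and in the second transcript tables on the right, with the role of each gene in brackets and the dashed line at 1 TPM. Tert lies left of the line in the gene tables in every library, and Nop10 and Naf1 lie close to it.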

How the data were processed

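Levels of H/ACA snoRNA and scaRNA genes were taken from 3 libraries of 1 group, grouped by the labels. The authors deposited gene tables with expected counts and TPM in the column layout of RSEM, and second transcript tables with estimated counts and TPM in the layout of kallisto, per the file headers, made with mm10 and annotation M21 per the text files deposited beside the samples. Aligner, versions and strand: not given in the sources used here. The 26345 rows naming no gene (1.04%, 0.425% and 0.401% of counts) were left out. No library was a copy of another (chi-square per degree of freedom 40.2 to 76.0). Transcripts of the second tables were summed per gene. With limma (3.58.1), each gene's mean log2(TPM + 0.1) was compared one-sided with 1 TPM, with Benjamini-Hochberg adjustment at 0.05. This scale understates differences of low genes. The scripts were tested on simulated data. For the floor, the simulated levels were set only in genes of long effective length, so that check does not cover members of small effective length. For the spread, expected counts were rounded and passed to edgeR (4.0.16) with TMM and filterByExpr. Sequences were folded with RNAfold (2.7.2) and compared with Biopython (1.88). H box letters were searched between 35% and 65% of the length. R 4.3.3 and python 3.11.15 were used. Named were every Scarna gene, the 12 Snora genes with the highest counts in each table, families sharing a number, their hosts and all pathway genes, with others by counts or ranges. One of the hosts is not reported here. Of 26 pathway symbols listed, Papd5 is another name of Tent4b. Members and lists were chosen with earlier results of these data known. Alternatives covered the floor, pseudocount, filter, scaling, table and each replicate left out, and CPM from the second tables was added after seeing the data.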

Additional observations from a re-analysis of the deposited data

How the results depend on the processing

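The number of members above the floor was 17 with a floor of 5 TPM (29.2% of all genes) or a pseudocount of 1 (51.0%), and 18, 18 and 21 without replicates 1, 2 and 3 (51.1%, 52.0% and 51.4%). It was 7 by CPM, 8 among genes with a mean of at least 10 expected counts (fewer genes tested), 39 in the second transcript tables and 13 by CPM from those tables, an alternative chosen after seeing the data. Pathway genes above the floor numbered 8 of 25 at 5 TPM and 20 to 23 under the other alternatives. By CPM from either table Gar1 and Terc no longer passed. Without the low-count filter the median biological coefficient of variation was 0.414 over 32 members (0.290 over all genes). At a minimum of 1 in place of 10, 26 members had expected counts and 42 had estimated counts. At a minimum of 50 these numbers were 7 and 11. No share over all genes is given at these minimums. The members' share was 0.0899% of the second tables, where more counts were assigned in all, and rho with the host was -0.17 there. No paired analysis was possible because there is only 1 group.

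Among the single named members, some changed side of the floor (log2 distance given). By CPM these were Snora21 and Snora23 (both -1.39), Snora5c (-1.39), Snora7a (-1.30), Snora9 (-1.24), Snora70 (-0.88), Snora78 (-2.61) and Snora81 (-1.71), and by CPM from the second tables Snora5c (-1.17), Snora9 (-1.15), Snora70 (-0.76), Snora78 (-0.22), Snora81 (-3.19) and Snora31 (2.09). In the second tables by TPM, Scarna3a moved to 4.05, Snora31 to 7.97, the longer Snora43 entry to 4.76 and Snora81 to -1.40. With a pseudocount of 1, Scarna3a was at 0.98, Snora31 at 0.88 and the Snora43 entries at 1.12 and 1.34. Without 1 of the replicates in which they had no counts, Scarna3a was at 1.16, Snora31 at 1.01 and the Snora43 entries at 1.37 and 1.70, since all expected counts of each of these entries lie in 1 library. At this depth, levels of members under 10 counts rest on few reads.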
